A study of Homo sapiens with 7 samples.

Results

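The semaphorin, plexin, neuropilin, ephrin and Eph genes were read out after silencing of DEPDC1 in MDA-MB-231, an established line of human triple-negative breast cancer cells. The set held the protein-coding genes whose symbol marks them as a semaphorin of classes 3 to 7, a plexin, a neuropilin, an ephrin or an Eph receptor, which gave 54 of the 60675 genes in the count table. Of these, 29 code for ligands (20 semaphorins and 9 ephrins) and 25 for receptors (9 plexins, 2 neuropilins and 14 Eph receptors). A further 9 symbols with the same stems belong to RNAs that are not protein-coding and were not included. Control cells (siCTL, 3 libraries) carried unaltered DEPDC1 and received a control siRNA, and the silenced cells (siDEPDC1, 4 libraries) received siRNA against DEPDC1. Both groups were given the same lipid transfection reagent, had their medium changed after 8 h and were harvested 2 days after transfection. All libraries come from a single cell line, and the labels do not say that replicates were separate cultures, so p-values speak only to how these libraries vary, and that variation may be technical.

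Semaphorins are secreted or membrane-bound signals that steer growing axons, vessels and migrating cells. They act on plexins, whose inner part switches off small GTPases of the Ras and Rap type, and most secreted class 3 semaphorins need a neuropilin as the ligand-binding partner in a complex with a plexin A. Ephrins sit on the cell surface, ephrin-A by a lipid anchor and ephrin-B by a membrane-spanning stretch, and bind Eph receptor tyrosine kinases on a touching cell, with signals running into both cells. In breast cancer cells these families are studied for their roles in cell contact, migration and the attraction of vessels.

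The transcripts of the members were searched for a 7-base word, GATAACT, because the word marked many of the genes that fell in this experiment. It was chosen from the fold changes of these same data, so its presence is a description. Of 12342 tested genes with a searchable 3′ UTR, 952 (7.71%) held it there. Among those 952 genes 54% fell, against 17.5% of the 11390 genes without a copy. Only 1 of the 44 tested members (2.27%), SEMA3A, had a 3′ UTR copy. In the coding part and not in the 3′ UTR, 6 members (13.6%) held the word, against 5.24% of all searched genes. These were NRP1, PLXNA2, PLXNA4, EPHA4, EPHA7 and SEMA6C. EPHA7 held a copy in its 5′ UTR as well. The shares were not adjusted for length, and the median exon length was 6363 bases in tested members and 4337.5 bases in all tested genes. The 27-base windows of the SEMA3A site and of the coding sites in members that rose or fell are given below on the transcript strand, 5′ to 3′, with the word in capitals (GRCh38, GENCODE release 29, all on the minus strand).
SEMA3A, 3′ UTR, exon 17 of 17, chr7:83959004-83959030: ataacttgcaGATAACTcattacagtc
NRP1, coding, exon 9 of 18, chr10:33221788-33221814: ccaaaccactGATAACTcgatttgtcc
PLXNA2, coding, exon 3 of 32, chr1:208210431-208210457: ccccatcgatGATAACTtctgtggact
PLXNA4, coding, exon 3 of 32, chr7:132489443-132489469: aaccattgacGATAACTtctgtggcct
EPHA4, coding, exon 16 of 18, chr2:221426506-221426532: ccggtataagGATAACTtcacagctgc
The word stood in the same exon of the paralogues PLXNA2 and PLXNA4, which moved in opposite directions. NRP1 fell, EPHA4 rose, and SEMA3A, EPHA7 and SEMA6C did not pass the test. The search covered 1 transcript per gene on its own strand, and whether any copy acts on its transcript was not tested.

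Library totals ran from 11704246 to 15360409 counts in siCTL and from 7690583 to 13483305 in siDEPDC1 (two-sided exact permutation p = 0.114, smallest possible 0.0286). Levels are CPM, counts scaled to library size with TMM factors, as mean ± SD over 3 siCTL and 4 siDEPDC1 libraries, and fold changes are siDEPDC1 over siCTL with their standard error. DEPDC1 itself stood at 114, 119 and 120.3 CPM in siCTL and at 15.3, 12.7, 13.4 and 11.9 CPM in siDEPDC1, which is 8.89-fold lower (log2 fold change -3.15 ± 0.0753, edgeR adjusted p = 1.2e-26), so every library matched its label. Of 4 markers high in this line, VIM (3713 and 3671 CPM) and CD44 (403 and 427 CPM) did not pass the test, KRT18 rose (349 to 429 CPM) and FN1 fell (630.2 to 541 CPM). Of 6 markers taken as low in it, ESR1 (0.278 and 0.0570 CPM), PGR (0.329 and 0.429 CPM) and CDH1 (1.11 and 0.372 CPM, called lower) were near 0. The other low markers were not at 0, with ERBB2 at 64.5 and 66.0 CPM, EPCAM at 10.4 and 11.6 CPM and GATA3 at 6.71 and 7.13 CPM. Of 24 markers of leukocytes, endothelium, fibroblasts, nerve and other epithelium, 8 were tested, 5 rose (CD14, COL1A1, SYT1, KRT19 and TP63) and 0 fell, and the fibroblast marker DCN had no counts. Their summed level was 367.8 to 449.0 CPM in siCTL and 457.8 to 554.6 CPM in siDEPDC1, most of it KRT19. The fibroblast sum was 18.8 to 21.7 CPM in siCTL and 36.8 to 42.9 CPM in siDEPDC1, most of it COL1A1, which rose 2.33-fold, and KRT5 had counts in siCTL replicates 1 and 2 alone (6.19 and 5.05 CPM). The part of these markers in the results was not tested.

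Of the 54 members, 44 had enough counts to be tested, and 21 of these (47.7%) passed an adjusted p of 0.05 in edgeR's quasi-likelihood test, 10 higher and 11 lower. The threshold was passed by 34.4% of the 16583 genes tested in all, 16.5% higher and 17.9% lower. In 20 of the 44 members the 2 groups of libraries did not overlap, against 37.3% of all tested genes. The plexins and neuropilins leaned lower: 6 of 11 fell and 1 rose. Of 15 tested semaphorins 5 rose and 3 fell, and of 11 tested Eph receptors 4 rose and 1 fell. The rises of SEMA3F, SEMA3G, SEMA6B, EPHA5 and PLXNA4 and the fall of EPHB6 were lost in some alternative analyses. All other calls in these families, among them the falls of SEMA3C, SEMA4B and SEMA4C, held in every alternative that tested them. Among the 7 tested ephrins 1 fell and 0 rose. The changes were modest in size: the median absolute log2 fold change was 0.46 over the called members and 0.37 over all called genes, and SEMA3G, at about 1 CPM, was the 1 called member past 2-fold.

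**Figure D1:**
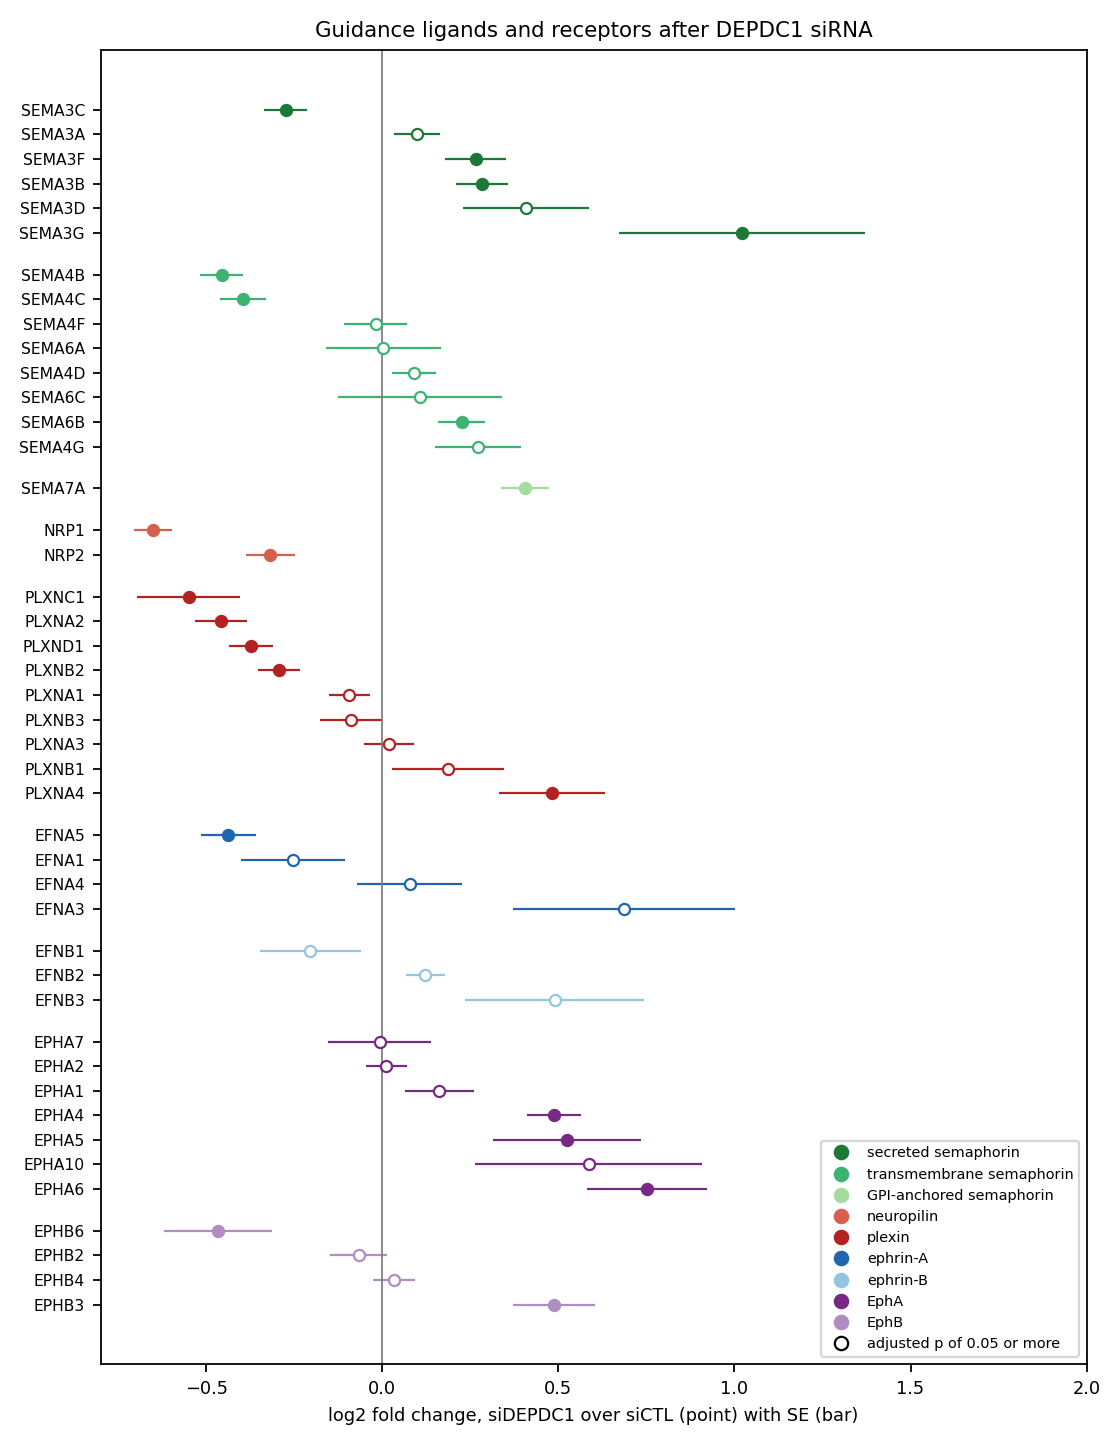
Log2 fold change (siDEPDC1 over siCTL, horizontal axis) of each of the 44 tested members, with its standard error as a bar, grouped and coloured by role; open circles did not pass an adjusted p of 0.05. NRP1 has the lowest value (-0.65) and SEMA3G the highest (1.02), and both neuropilins and 4 of 9 plexins are filled on the left of 0.

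Split by side, the ligands had 5 higher and 4 lower of 22 tested (40.9%), with a median log2 fold change of 0.10. The receptors had 5 higher and 7 lower of 22 tested (54.5%), with a median of 0.0023. The median over all tested genes was 0.00094, and whether ligands and receptors differ was not tested. The summed level of the ligands was 869.8 ± 3.48 CPM in siCTL and 868.6 ± 32.5 CPM in siDEPDC1, a difference within the spread of the libraries. The summed level of the receptors was 2477 ± 98.9 CPM in siCTL and 2187 ± 117 CPM in siDEPDC1, or 88.3% of the control mean. The receptor sum per library was 2579, 2471 and 2382 in siCTL and 2182, 2089, 2124 and 2352 in siDEPDC1, so the groups did not overlap, although siCTL replicate 3 and siDEPDC1 replicate 4 were close. In these bulk libraries fewer cells that make an RNA and less of it per cell cannot be told apart.

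Neuropilins carried the largest receptor loss. NRP1, the neuropilin that binds SEMA3A and also forms of VEGF (ENSG00000099250, chr10:33177492-33336262, minus strand), stood at 465, 469 and 473 CPM in siCTL and at 321, 291, 282 and 301 CPM in siDEPDC1. The 3 control values lay close together and every siDEPDC1 library was far below them. Its mean went from 469 ± 3.87 to 299 ± 16.4 CPM, 1.57-fold lower (log2 fold change -0.65 ± 0.0544, edgeR adjusted p = 9e-12). NRP2, its relative that prefers SEMA3F and lymphatic VEGF forms (ENSG00000118257, chr2:205681990-205798133, plus strand), stood at 50.2, 48.8 and 52.5 CPM in siCTL and at 40.6, 39.9, 37.0 and 43.9 CPM in siDEPDC1. These groups did not overlap either, and the fall was smaller, from 50.5 ± 1.84 to 40.4 ± 2.85 CPM (log2 fold change -0.32 ± 0.0701, edgeR adjusted p = 0.00053). The ratio of NRP1 to NRP2 was 9.26, 9.61 and 9.01 in siCTL and 7.90, 7.30, 7.63 and 6.85 in siDEPDC1. That ratio fell by 0.33 on the log2 scale (two-sided exact permutation p = 0.0286, the smallest this design allows; 1 ratio was tested, chosen after its values were seen). An RNA on the opposite strand within NRP1 (ENSG00000238258) moved with it, from 64.4 ± 3.86 to 38.3 ± 2.03 CPM. The strand setting of the counting is not known from the sources used here, and without it reads of that RNA and of NRP1 cannot be told apart.

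Among plexins, the A class pairs with neuropilins or binds class 6 semaphorins directly. PLXNA1, the main A plexin here (chr3:126988594-127037392, plus strand), stood at 941, 860.1 and 832 CPM in siCTL and at 823, 765, 816 and 888 CPM in siDEPDC1. The groups overlapped, and its log2 fold change of -0.09 ± 0.0588 did not pass the test (edgeR adjusted p = 0.23), although it did with the GC and length trend removed (-0.14, adjusted p = 0.0049). PLXNA2, a receptor of class 6 semaphorins, stood at 44.6, 47.9 and 40.7 CPM in siCTL and at 33.1, 30.9, 30.7 and 34.7 CPM in siDEPDC1. All siDEPDC1 libraries lay below all siCTL libraries, a fall of 0.46 ± 0.0747 on the log2 scale (edgeR adjusted p = 8.6e-06). PLXNA4, a close relative with shared ligands, stood at 4.20, 5.71 and 5.04 CPM in siCTL and at 6.85, 5.97, 6.77 and 8.46 CPM in siDEPDC1. It was the 1 plexin that rose (log2 fold change 0.48 ± 0.149, edgeR adjusted p = 0.012), on 52 to 95 counts a library. Its call was lost without siCTL replicate 1 (0.37, adjusted p = 0.092) or siDEPDC1 replicate 4 (0.37, adjusted p = 0.067). PLXNA3 had 60.4 ± 2.80 CPM in siCTL and 61.1 ± 6.52 CPM in siDEPDC1 and did not pass (edgeR adjusted p = 0.86).

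The other plexins take transmembrane or class 3 and 7 semaphorins without a need for neuropilin. PLXNB2, a receptor of class 4 semaphorins that is abundant in epithelial cells, stood at 237, 223 and 212 CPM in siCTL and at 177, 171, 182 and 203 CPM in siDEPDC1. The highest siDEPDC1 library lay just under the lowest siCTL library, and the fall was 0.29 ± 0.0595 on the log2 scale (edgeR adjusted p = 0.0002). PLXND1, the endothelial receptor of SEMA3E, stood at 109, 108 and 101 CPM in siCTL and at 82.7, 75.9, 79.8 and 89.5 CPM in siDEPDC1. The groups were well apart, with a log2 fold change of -0.37 ± 0.0617 (edgeR adjusted p = 1.1e-05). PLXNC1, the receptor of SEMA7A, stood at 7.22, 7.55 and 8.08 CPM in siCTL and at 6.46, 4.93, 3.52 and 5.52 CPM in siDEPDC1, also without overlap. It fell by 0.55 ± 0.147 on the log2 scale (edgeR adjusted p = 0.0036), and its locus overlaps CEP83 on the opposite strand, which fell from 14.4 to 11.5 CPM and had 1067 counts against 528. PLXNB1, a receptor of SEMA4D, had 4.72 ± 0.986 and 5.42 ± 0.760 CPM (edgeR adjusted p = 0.39), and PLXNB3 had 32.2 ± 2.11 and 30.2 ± 4.67 CPM (edgeR adjusted p = 0.47). With the GC and length trend removed, PLXNB3 passed as lower (-0.18, adjusted p = 0.038). Endothelial markers were low in both groups (summed level 10.8 to 14.6 CPM in siCTL and 10.1 to 12.7 CPM in siDEPDC1), and nearly all of that was PECAM1, while CDH5, VWF and TEK were near 0.

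**Figure D2:**
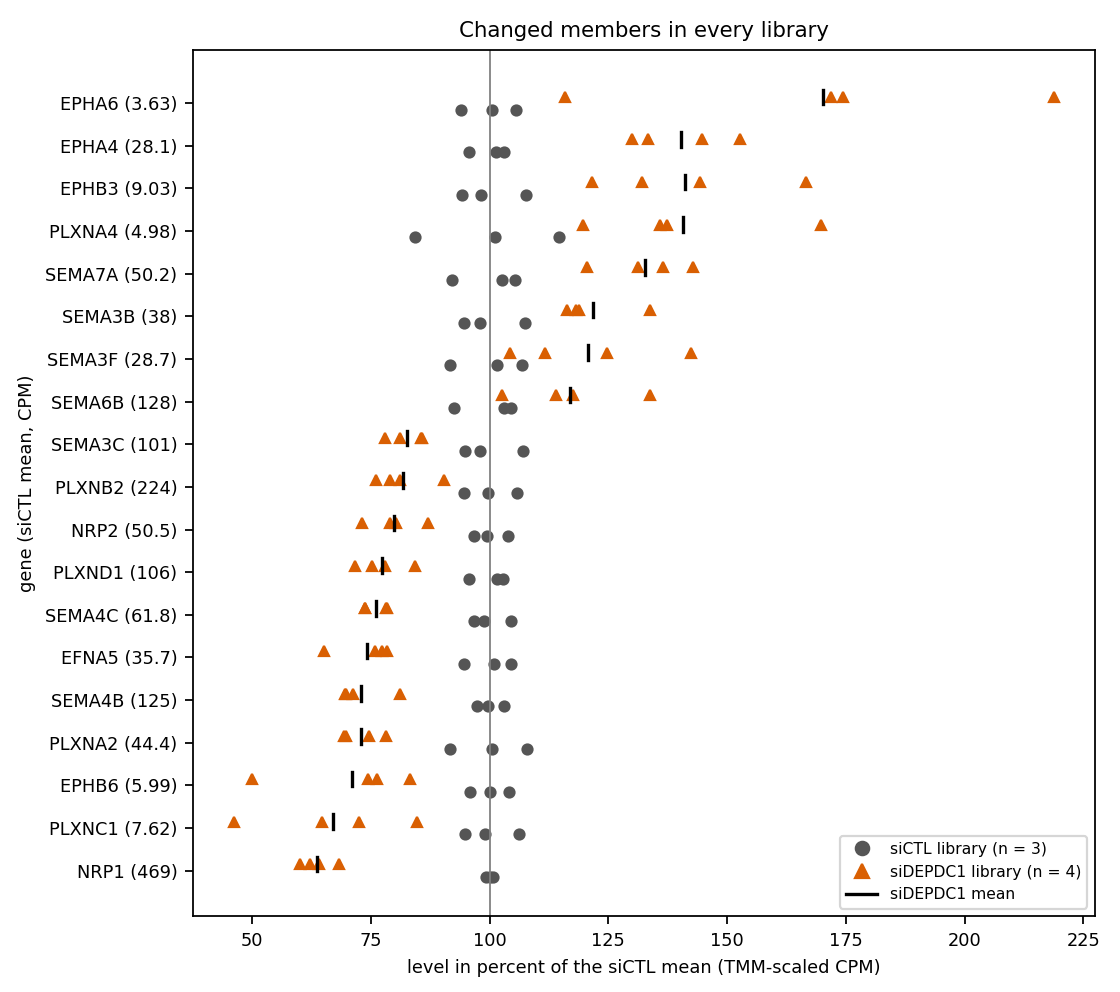
Level of the 19 called members with at least 5 CPM in either group, in each library, as a percent of the siCTL mean (horizontal axis); circles are the 3 siCTL libraries, triangles the 4 siDEPDC1 libraries, black lines the siDEPDC1 means, and the siCTL mean in CPM follows each name. NRP1 shows the tightest controls, and the triangles of SEMA3F and SEMA6B reach into the range of the circles.

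The secreted class 3 semaphorins are soluble ligands that mostly repel cells and vessels. SEMA3C, their most abundant member here per kilobase and an attractive as well as repulsive cue, stood at 99.0, 95.8 and 108 CPM in siCTL and at 86.5, 78.7, 81.9 and 86.6 CPM in siDEPDC1. It was the only class 3 semaphorin that fell (log2 fold change -0.27 ± 0.0611, edgeR adjusted p = 0.00058), with no overlap between groups. With the GC and length trend removed, its log2 fold change was -0.16 (adjusted p = 0.0085). SEMA3B, known as a candidate tumour suppressor, stood at 37.2, 40.8 and 35.9 CPM in siCTL and at 44.9, 45.2, 44.2 and 50.8 CPM in siDEPDC1. It rose without overlap (log2 fold change 0.28 ± 0.073, edgeR adjusted p = 0.0026). SEMA3F, a ligand of NRP2 that repels lymphatic and blood vessel cells, stood at 29.2, 30.7 and 26.3 CPM in siCTL and at 29.9, 32.0, 35.8 and 40.9 CPM in siDEPDC1. The groups overlapped, and the rise of 0.26 ± 0.0874 (edgeR adjusted p = 0.018) was lost without siCTL replicate 3 (0.21, adjusted p = 0.074) or siDEPDC1 replicate 4 (0.17, adjusted p = 0.10). SEMA3F and SEMA3B are neighbours on chromosome 3, 78.5 kb apart. SEMA3F shares its locus with the antisense RNA SEMA3F-AS1, which had 24.4 ± 0.668 and 24.1 ± 2.03 CPM and did not pass the test (edgeR adjusted p = 0.89).

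SEMA3A, the classical axon repellent and NRP1 ligand, stood at 58.6, 62.2 and 66.8 CPM in siCTL and at 71.3, 66.1, 65.1 and 64.9 CPM in siDEPDC1. Those ranges overlapped and the log2 fold change of 0.10 ± 0.0647 did not pass (edgeR adjusted p = 0.25), although it did with the GC and length trend removed (0.27, adjusted p = 2e-05). SEMA3G, a ligand of NRP2, rose from 0.582 ± 0.144 to 1.20 ± 0.330 CPM (log2 fold change 1.02 ± 0.35, edgeR adjusted p = 0.022) on 5 to 19 counts a library. That call was lost without siCTL replicate 1 (1.02, adjusted p = 0.061), siCTL replicate 3 (0.87, adjusted p = 0.081) or siDEPDC1 replicate 4 (0.81, adjusted p = 0.098). The SEMA3G call was also lost in DESeq2 (adjusted p = 0.095) and with the replicate number as a block (adjusted p = 0.13). SEMA3D had 3.84 ± 1.02 and 5.01 ± 0.833 CPM (edgeR adjusted p = 0.074), and it passed without siCTL replicate 3 (0.58, adjusted p = 0.016) or with the GC and length trend removed (0.56, adjusted p = 0.0055). SEMA3E had 55 counts over all libraries and was not tested. As a class, 3 of 6 tested secreted semaphorins rose and 1 fell, and their summed level was 235 ± 7.06 CPM in siCTL and 238 ± 9.49 CPM in siDEPDC1.

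Transmembrane semaphorins act at cell contacts and, as receptors in their own right, can signal back into the cell that carries them. SEMA4B stood at 125, 129 and 122 CPM in siCTL and at 89.5, 87.1, 87.5 and 102 CPM in siDEPDC1. It fell by 0.46 ± 0.0607 on the log2 scale with no overlap (edgeR adjusted p = 2.7e-07), the smallest adjusted p among the ligands. SEMA4C, a ligand of PLXNB2, stood at 59.7, 61.0 and 64.6 CPM in siCTL and at 45.5, 45.5, 48.3 and 48.5 CPM in siDEPDC1. Both groups were tight and well apart (log2 fold change -0.40 ± 0.0654, edgeR adjusted p = 1.1e-05). SEMA6B, the transmembrane semaphorin with the highest level per kilobase and a ligand of PLXNA4, stood at 133, 132 and 118 CPM in siCTL and at 131, 145, 150.0 and 171 CPM in siDEPDC1. Here siDEPDC1 replicate 1 lay within the control range, and the rise of 0.23 ± 0.0674 (edgeR adjusted p = 0.0091) was lost without siCTL replicate 3 (0.17, adjusted p = 0.055). It was also lost with the GC and length trend removed (0.10, adjusted p = 0.052). SEMA4D, the PLXNB1 ligand best known from lymphocytes, had 63.2 ± 3.95 and 67.2 ± 1.70 CPM (edgeR adjusted p = 0.28). SEMA4F, SEMA4G, SEMA6A and SEMA6C had siCTL means of 18.4, 7.32, 4.64 and 1.97 CPM and did not pass (edgeR adjusted p from 0.081 to 0.99). SEMA4G overlaps MRPL43, which rose from 51.3 to 63.9 CPM.

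SEMA7A, the lipid-anchored semaphorin that binds PLXNC1 and integrins and is studied for its part in breast tumour invasion, stood at 51.6, 52.8 and 46.2 CPM in siCTL and at 60.5, 65.9, 68.5 and 71.7 CPM in siDEPDC1. Every siDEPDC1 library was above every siCTL library. Its mean rose from 50.2 ± 3.51 to 66.7 ± 4.72 CPM, 1.32-fold (log2 fold change 0.41 ± 0.0692, edgeR adjusted p = 1.8e-05). Among the ligands that rose it had the smallest adjusted p.

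Of the ephrins, EFNA5 alone passed the test. EFNA5, the main ephrin-A here per kilobase and a ligand of most EphA receptors, stood at 37.3, 36.0 and 33.8 CPM in siCTL and at 28.0, 27.1, 27.6 and 23.3 CPM in siDEPDC1. It fell from 35.7 ± 1.79 to 26.5 ± 2.18 CPM with no overlap (log2 fold change -0.44 ± 0.0779, edgeR adjusted p = 3.4e-05). EFNB2, the arterial ephrin and ligand of EPHB4, stood at 120.4, 114.9 and 119.7 CPM in siCTL and at 129.8, 126.2, 131.2 and 127.9 CPM in siDEPDC1. Its groups did not overlap, yet the difference of 0.12 ± 0.0554 on the log2 scale did not pass (edgeR adjusted p = 0.088); it did with the GC and length trend removed (0.15, adjusted p = 0.0029), by library size alone and under the stricter count filter. An RNA on the opposite strand of EFNB2 (ENSG00000284966) rose from 71.9 to 82.2 CPM. EFNA1, the usual ligand of EPHA2, had 6.19 ± 1.19 and 5.17 ± 0.507 CPM (edgeR adjusted p = 0.19). EFNA3, EFNA4, EFNB1 and EFNB3 had siCTL means of 0.883, 5.11, 6.09 and 1.38 CPM and did not pass (edgeR adjusted p from 0.09 to 0.73). EFNA3 passed as higher without siDEPDC1 replicate 1 (0.88, adjusted p = 0.024).

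Eph receptors include EPHA2, which is widely overexpressed in breast cancer and had the highest level per kilobase of all members. EPHA2 stood at 433, 425 and 390.1 CPM in siCTL and at 394, 420.4, 406 and 457 CPM in siDEPDC1. Those ranges overlapped almost fully, and its log2 fold change of 0.011 ± 0.0578 changed sign under other processing (edgeR adjusted p = 0.9). EPHA4, a receptor that binds ephrins of both classes, stood at 28.9, 26.9 and 28.5 CPM in siCTL and at 42.9, 36.5, 37.5 and 40.7 CPM in siDEPDC1. It rose 1.40-fold with a wide gap between groups (log2 fold change 0.49 ± 0.0763, edgeR adjusted p = 4.3e-06), the smallest adjusted p of any member that rose. EPHA6, best known from neurons, stood at 3.83, 3.41 and 3.65 CPM in siCTL and at 4.21, 6.33, 7.94 and 6.24 CPM in siDEPDC1. It rose without overlap (log2 fold change 0.75 ± 0.171, edgeR adjusted p = 0.00073) on 42 to 86 counts a library, too few to be kept by the stricter count filter. Markers of neurons and Schwann cells also had a higher summed level in siDEPDC1 (6.11 to 6.64 CPM) than in siCTL (3.68 to 4.43 CPM), a move whose part in the EPHA6 result was not tested. EPHA5, another receptor known from neurons, went from 2.17 ± 0.381 to 3.16 ± 0.659 CPM with an edgeR adjusted p of 0.0498. That call was lost without siCTL replicate 2 (adjusted p = 0.13), siCTL replicate 3 (0.15) or siDEPDC1 replicates 1, 2 or 3 (0.18, 0.067 and 0.064). The EPHA5 call was also lost in DESeq2 (adjusted p = 0.15), in limma-voom (0.061), without a count filter (0.1) and after thinning (0.18). EPHA1, EPHA7 and EPHA10 had siCTL means of 15.9, 5.49 and 0.977 CPM and did not pass (edgeR adjusted p from 0.16 to 0.98). EPHA10 passed as higher without siDEPDC1 replicate 2 (0.85, adjusted p = 0.041).

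Of the EphB receptors, which bind ephrin-B, EPHB4 stood highest, at 77.8, 76.8 and 73.2 CPM in siCTL and 74.4, 80.1, 75.8 and 80.3 CPM in siDEPDC1. Its groups overlapped and the log2 fold change was 0.033 ± 0.0602 (edgeR adjusted p = 0.71). EPHB3, a receptor that sorts cells in the intestinal crypt, stood at 9.72, 8.86 and 8.51 CPM in siCTL and at 11.9, 11.0, 13.0 and 15.1 CPM in siDEPDC1. It rose 1.40-fold with no overlap (log2 fold change 0.49 ± 0.116, edgeR adjusted p = 0.0012). EPHB6, a family member that lacks kinase activity, stood at 5.75, 6.24 and 5.99 CPM in siCTL and at 4.99, 4.57, 3.00 and 4.45 CPM in siDEPDC1. It was the 1 Eph receptor that fell (log2 fold change -0.47 ± 0.153, edgeR adjusted p = 0.017), on 23 to 95 counts a library. The call was lost without siCTL replicate 2 (-0.44, adjusted p = 0.066) or siDEPDC1 replicate 3 (-0.36, adjusted p = 0.073), and in DESeq2 (adjusted p = 0.071). EPHB2 had 31.7 ± 2.26 and 30.2 ± 2.78 CPM (edgeR adjusted p = 0.56).

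Compared per kilobase of exon, the set was dominated by a few genes. EPHA2 had 100.04 ± 5.49 CPM per kb in siCTL, followed by PLXNA1 (80.2 ± 5.18), NRP1 (40.7 ± 0.336) and PLXNB2 (30.9 ± 1.71), and these 4 receptors made up 54.5% of the summed level per kb. SEMA6B (28.9 ± 1.87) overlapped PLXNB2 within their SDs and led the ligands, with EFNB2 (23.6 ± 0.604), SEMA4B (17.9 ± 0.519), SEMA3C (16.1 ± 1.03) and SEMA7A (13.2 ± 0.924) after it. Neighbours further down, such as EPHB4 (11.8), PLXND1 (10.9) and SEMA4C (10.03 CPM per kb), stood close together. In siDEPDC1, EPHA2 (100.8 ± 6.57) and PLXNA1 (75.2 ± 4.59) stayed at the top, NRP1 stood at 25.9 ± 1.43 CPM per kb, and SEMA6B (33.9 ± 3.73) stood above it. A single gene held most of several classes in siCTL: EPHA2 had 91.9% of the EphA level per kb, NRP1 91.8% of the neuropilin level, EFNB2 91.2% of the ephrin-B level, EPHB4 67.5% of the EphB level and PLXNA1 58.8% of the plexin level.

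**Figure D3:**
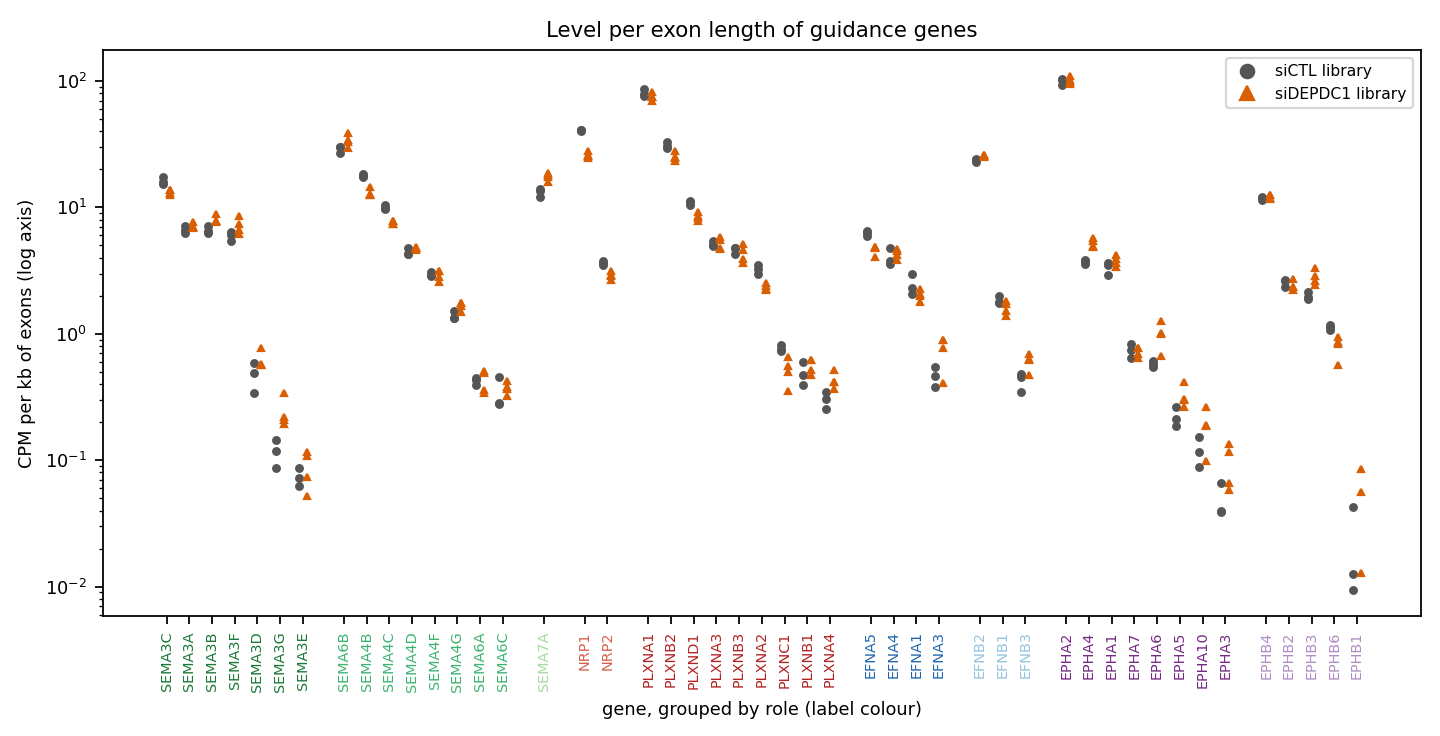
Level in CPM per kilobase of exon (vertical log axis) of members with counts, grouped by role in the colour of the label. SEMA4A, SEMA5A, SEMA5B, SEMA6D and EFNA2 had counts but are left out for their low level in siCTL. Circles are siCTL libraries, triangles siDEPDC1 libraries, and libraries at 0 are not drawn. EPHA2 and PLXNA1 stand at the top, near 100.04 and 80.2 CPM per kb in siCTL, and NRP1 is the highest gene whose groups separate.

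Another 10 members had too few counts to be tested. EPHA8 and the readthrough gene EFNA4-EFNA3 had 0 counts, where 0 of the 83297779 counts in all libraries allows up to 0.0360 CPM. SEMA5A and EFNA2 had 1 count each, SEMA4A and SEMA5B 3, EPHB1 and SEMA6D 18, EPHA3 39 and SEMA3E 55. No statement on a change in these genes was possible at this depth, and such limits cover counting error only. Among tested members, those that fell were more abundant, with a median siCTL level of 61.8 CPM over 11 genes, than those that rose, with 18.6 CPM over 10 genes, where the median of all tested genes was 19.3 CPM. The members' transcripts were rich in GC: the median was 59.5% in those that rose, 54.2% in those that fell and 58.5% in those not called, against 48.9% over all tested genes.

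**Figure D4:**
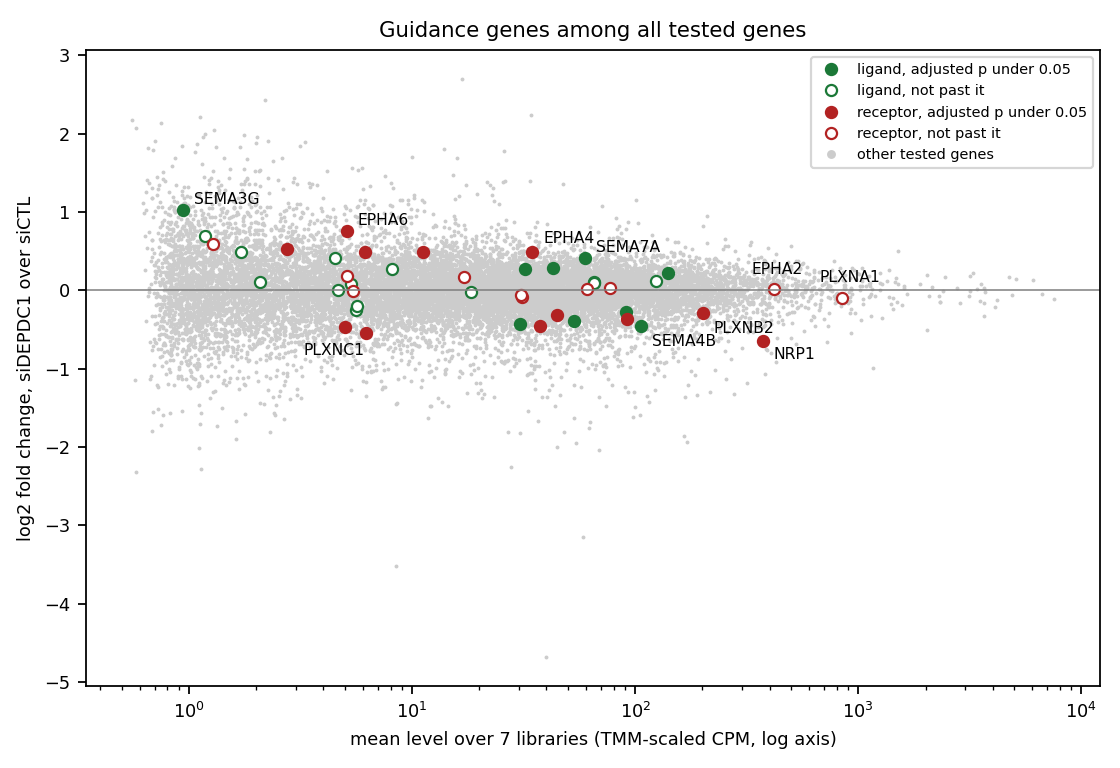
Mean level over all 7 libraries (CPM, horizontal log axis) against log2 fold change (vertical axis) for all tested genes in grey, with ligands in green and receptors in red, filled where the adjusted p was under 0.05. The 3 members furthest to the right are NRP1, EPHA2 and PLXNA1, of which NRP1 alone is filled.

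To set ligands beside their receptors, 14 pairs known from textbooks were read together; the pairs were written down with the fold changes known, so their counts are a description. Both partners passed the test in the same direction in 4 pairs. SEMA3C (-0.27) fell with NRP1 (-0.65) and with NRP2 (-0.32), SEMA4C (-0.40) fell with PLXNB2 (-0.29), and SEMA6B (0.23) rose with PLXNA4 (0.48). Partners moved in opposite directions in 3 pairs: SEMA3F (0.26) rose where NRP2 fell, SEMA7A (0.41) rose where PLXNC1 (-0.55) fell, and EFNA5 (-0.44) fell where EPHA4 (0.49) rose. In 3 pairs only the receptor passed: SEMA3A with NRP1, and SEMA6A with PLXNA2 and with PLXNA4. Neither partner passed in the remaining 4, which were SEMA4D with PLXNB1, EFNA1 with EPHA2, EFNB1 with EPHB2 and EFNB2 with EPHB4. The calls of SEMA3F, SEMA6B and PLXNA4 were among those lost in some alternatives, so 3 of the pairs rest on them.

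**Figure D5:**
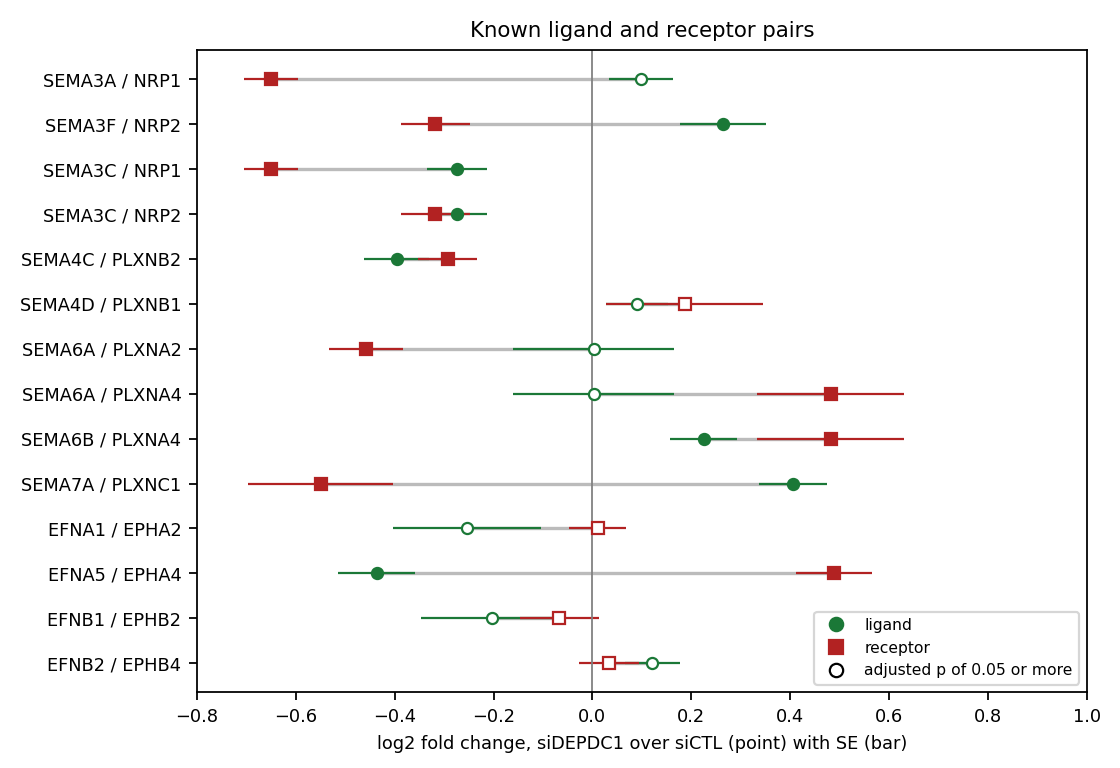
Log2 fold change (siDEPDC1 over siCTL, horizontal axis) of the ligand (green circle) and receptor (red square) of 14 known pairs, with standard errors as bars; open symbols did not pass an adjusted p of 0.05. SEMA7A with PLXNC1 and EFNA5 with EPHA4 lie on opposite sides of 0, and SEMA3C with NRP1 and SEMA4C with PLXNB2 both lie on the left.

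The genes that act with and below these receptors were taken from 4 further lists. These lists were chosen with earlier results of these data known, so their counts and shares are a description. Over the 102 list genes tested, 24 rose and 32 fell, where 34.4% of all tested genes were called, 16.5% higher and 17.9% lower. In semaphorin and plexin signalling, 11 rose and 8 fell of 36 tested (52.8%), with a median log2 fold change of 0.0072. RAP1B and RAP1A, small GTPases of the kind that plexins switch off, had the lowest adjusted p: RAP1B fell 2.79-fold from 68.7 ± 0.826 to 24.6 ± 1.19 CPM (edgeR adjusted p = 1.8e-18), and RAP1A fell 3.53-fold from 51.4 ± 3.88 to 14.6 ± 1.96 CPM (edgeR adjusted p = 2.4e-18). MET, the HGF receptor that associates with B plexins, fell 1.81-fold from 222 ± 2.22 to 123 ± 7.99 CPM. L1CAM, an adhesion molecule and partner of NRP1, rose 1.52-fold from 162 ± 2.84 to 246 ± 14.1 CPM. PAK1, a kinase under Rac, rose 1.40-fold, and RAC1 itself rose 1.30-fold, from 358 ± 4.18 to 464 ± 13.7 CPM. All siDEPDC1 libraries lay outside the siCTL range for each of these 6 genes.

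In Eph and ephrin signalling, 6 rose and 14 fell of 38 tested (52.6%), with a median of -0.072. The adaptor GRB2 rose 1.35-fold from 111 ± 2.78 to 150.1 ± 5.88 CPM, and the kinases MAPK3 and SRC rose 1.30-fold and 1.29-fold. SPRED1, an inhibitor of Ras signalling, fell 1.46-fold from 128 ± 8.29 to 87.9 ± 8.71 CPM, and the phosphatase PTPN11 fell 1.35-fold from 478 ± 23.6 to 354 ± 16.8 CPM. ANKS1B, whose relatives bind Eph receptors, fell 1.98-fold at a low level (5.53 ± 0.426 to 2.71 ± 0.881 CPM). Groups did not overlap in these 6 genes.

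Other guidance families had 16 of 32 genes tested, of which 3 rose and 6 fell (56.2%, median -0.076). MYO10, a filopodial motor that carries netrin receptors, fell 2.57-fold from 255 ± 7.10 to 99.5 ± 1.84 CPM (edgeR adjusted p = 3.1e-20), the lowest adjusted p on this list. FLRT2, a ligand of UNC5 receptors, fell 1.53-fold, and SRGAP2, which acts below Robo, fell 1.46-fold. SDC1, a heparan sulphate co-receptor, rose 1.71-fold from 64.1 ± 2.35 to 110.2 ± 11.0 CPM. GPC1, another such proteoglycan, rose 1.40-fold, and SLIT2, the Robo ligand, rose 1.31-fold from 73.1 ± 4.11 to 95.8 ± 6.91 CPM.

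Among proteases that shed or trim guidance proteins, 4 rose and 5 fell of 13 tested (69.2%, median -0.060). The sheddase ADAM17 fell 1.40-fold from 65.2 ± 4.23 to 46.3 ± 2.22 CPM, ADAM8 fell 1.32-fold, and the membrane metalloprotease MMP14 fell 1.31-fold. ADAM10, which cleaves ephrin-A complexes and is on 2 of the lists, fell 1.12-fold with overlapping groups (edgeR adjusted p = 0.029). PCSK5 and FURIN, members of the convertase family that processes class 3 semaphorins, rose 1.57-fold and 1.14-fold. PCSK5 was at a low level (2.28 ± 0.595 to 3.49 ± 0.602 CPM), while FURIN went from 58.5 ± 3.43 to 66.8 ± 7.10 CPM. APH1A, a gamma-secretase subunit, rose 1.12-fold. Those 3 rises were lost without single libraries: PCSK5 without siCTL replicate 1 or siDEPDC1 replicate 2 (adjusted p = 0.13 and 0.10), APH1A without siCTL replicates 1 or 3 or siDEPDC1 replicates 2 or 3 (0.087, 0.11, 0.071 and 0.080). FURIN lost its call without siCTL replicates 1 or 3 or siDEPDC1 replicate 4 (edgeR adjusted p = 0.074, 0.14 and 0.18). The word GATAACT stood in the 3′ UTR of 12 of 99 searched list genes. By direction, these were 9 of 31 that fell (29%: ADAM10, ARHGEF12, MET, MYO10, RAP1A, RAP1B, SDCBP, SPRED1 and SRGAP2), 1 of 24 that rose (PCSK5) and 2 of 44 not called. Over all searched genes that fell, 514 of 2507 (20.5%) held the word, and since it was chosen for marking such genes, the split by direction is a description.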

How the data were processed

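RNA-seq counts of 3 siCTL and 4 siDEPDC1 libraries were analysed. The authors deposited whole-number counts per Ensembl gene and library; they used GRCh38, with FastQC, STAR 2.7.9a and DESeq2 listed as tools, per the submitters' processing notes. For the read counter, its annotation, its strand setting and the siRNA sequence, nothing is given in the sources used here. Counts were tested on the whole table with edgeR 4.0.16 in R 4.3.3 (filterByExpr by group, TMM, robust glmQLFit, glmQLFTest, two-sided), adjusted by Benjamini-Hochberg over 16583 genes at 0.05; "rose" and "fell" mean past that threshold. Fold changes are fitted, while levels are TMM-scaled CPM. Exon lengths, coordinates and transcripts came from GENCODE release 29 (GRCh38), which may not be the release counted; 58444 of 60675 genes matched. The script was tested on simulated data.

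Members, lists, pairs and the word searched were chosen with earlier results of these data known. Values in every library are given for called members with a mean of at least 5 CPM in either group and for the member with the highest CPM per kb in each role; each further list names up to 3 called genes per direction with the smallest adjusted p, and SEMA3A, ADAM10 and the carriers of the word were added after their values were seen. Exact permutation tests served for single values. Alternatives, 17 in all, covered scaling, count filters, DESeq2 1.42.0, limma-voom (limma 3.58.1), thinning, GC and length, the replicate number as a block, and each library left out.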

Additional observations from a re-analysis of the deposited data

Results flagged for a closer look

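In 3 of 45 groups of 4 siDEPDC1 libraries, a library stood apart from the others by a gap larger than the Dixon 95% critical value; chance marks about 1 in 20 such groups. SEMA3B had 50.8 CPM in siDEPDC1 replicate 4, against 44.2 to 45.2 CPM in the other libraries of the group. SEMA4B had 102 CPM in siDEPDC1 replicate 4, against 87.1 to 89.5 CPM. SEMA3D had 6.26 CPM in siDEPDC1 replicate 1, against 4.54 to 4.69 CPM. SEMA3B and SEMA4B kept their calls without siDEPDC1 replicate 4.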

How the results depend on the processing

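Of the 21 called members, 15 kept their call in every one of the 17 alternatives that tested them, 6 lost it in some (EPHA5, EPHB6, PLXNA4, SEMA3F, SEMA3G and SEMA6B) and 0 changed sign. Of the uncalled members, 7 gained a call in some alternative, 5 of them (EFNB2, PLXNA1, PLXNB3, SEMA3A and SEMA3D) with the GC and length trend removed. The number that rose was 10, and 7 to 10 with each library left out, 12 with the GC and length trend removed and 11 by library size alone. It was 6 with the replicate number as a block over 6 libraries, against 7 in those libraries without the block. Same-numbered libraries deviated with correlations of -0.080, -0.0078 and -0.051. These values give no sign of a shared deviation, but they cannot show whether same-numbered libraries were prepared together. The number that fell ranged from 10 to 13. All 7 members that changed sign were uncalled, and the cause was not tested. With the block, EPHA2 was -0.029, PLXNA3 -0.040, SEMA4F 0.0019 and SEMA6A -0.11; in the same libraries without it these were -0.030, -0.038, 0.0039 and -0.10. With the GC and length trend removed, EPHA2 was -0.053, EPHA7 0.13 and EPHB4 -0.045. Without a count filter EPHA2 was -0.0040 and SEMA6A -0.013; with a stricter one EPHA7 was 0.0084. By library size alone EPHA7 was 0.023 and SEMA4F 0.011, by limma-voom EPHA7 was 0.0035 and SEMA6A -0.019, and after thinning EPHA7 was 0.13 and SEMA6C -0.034. Leaving out each library gave -0.034 to 0.043 for EPHA2, -0.11 to 0.076 for EPHA7, -0.038 to 0.066 for PLXNA3, -0.061 to 0.034 for SEMA4F, -0.10 to 0.12 for SEMA6A and -0.024 to 0.39 for SEMA6C.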
